A study of Schmidtea mediterranea with 89 samples.

Results

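The comparison described here set planarian stem cells kept on a soft PA gel of 100 Pa (the labels do not spell out PA) against the same kind of cells kept on a flat plate. It rests on 17 RNA libraries, 8 from gel and 9 from flat cultures, chosen by the column names of 1 deposited table, which holds 26 of the 89 libraries of the series. The gel groups had 3 libraries at 1 d, 3 at 2 d and 2 at 3 d, and the flat groups had 3 libraries at each of these days. All cells were labelled wild type (WT) and SiRNeoblast, that is, neoblasts of the planarian flatworm Schmidtea mediterranea isolated with a fluorescent DNA stain, and all were grown in the same serum-containing medium. The same table holds 3 libraries of U-bottom plate cultures at 1 d, 3 at 3 d and 3 of uncultured cells, which are given below as values only. The other 4 experiments of the series tested aggregates, AggreWell plates, feeder cells and a cell extract, each in a table of its own.

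Neoblasts are the dividing stem cells of adult planarians and the only source of new cells in growth and regeneration. Kept outside the animal, they are known to lose stem cell properties over days. In many animal cells, the stiffness of the surface is sensed through adhesion sites and the cytoskeleton, and a plastic plate is far stiffer than soft tissue.

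The table lists 36035 transcript identifiers that start with SMED3 and pairs none of them with a gene name, so neither the cell type label nor any pathway could be checked against marker genes. Identifiers are therefore printed as deposited, with at most 2 higher and 2 lower per comparison. The 17 libraries held 12386092 to 25589050 estimated counts each, with a median of 17159651. The labels do not say whether replicate libraries stem from separate cultures or worms. A p-value here therefore reflects the spread among the libraries alone, and that spread may be technical. Fewer cells of a kind and less RNA per cell cannot be told apart in such bulk libraries.

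Several libraries stood apart from others of their group. Gel replicate 2 at 3 d had 84.6% of its counts in the 4 leading identifiers, the highest share of the 17, and a TMM scaling factor of 0.463 (trimmed mean of M values, the correction for unequal composition), the lowest of the 17. Flat replicate 3 at 3 d agreed least with its group, with r = 0.936 and 0.925 across identifiers on the log2 CPM scale, against 0.944 for the other pair. Gel replicate 1 at 2 d had r = 0.943 and 0.944, against 0.983 for the other pair. A further property of the table touches the comparison. Its columns stand in 2 alphabetical runs, and all 8 gel libraries lie in the second run with 4 of the 9 flat libraries, 2 of 2 d and 2 of 3 d. The other 5 flat libraries, including all 3 of 1 d, lie in the first run. The sources used here do not say what the runs are, so counts of calls are also given with the run as a term and within the second run.

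Averaged over the 3 days, 598 of the 20949 identifiers tested (2.85%) differed between gel and flat cultures. Of these, 274 (1.31%) were higher and 324 (1.55%) lower on gel at an adjusted p of 0.05, by edgeR's quasi-likelihood F test with Benjamini-Hochberg adjustment over all identifiers. The differences were mostly modest. The 274 higher identifiers had a median log2 fold change of 0.61, and 48 of them were more than 2-fold higher. The 324 lower identifiers had a median of -0.79, and 94 of them were more than 2-fold lower. The median over all identifiers tested was -0.02.

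Called identifiers were found at every level of expression, in CPM, the depth-scaled count. Among identifiers under 1 CPM, 40 of 8291 (0.482%) were called, and their median absolute log2 fold change was 2.59. Between 1 and 10 CPM the number was 231 of 7860 (2.94%), between 10 and 100 CPM 294 of 4410 (6.67%), and from 100 CPM upwards 33 of 388 (8.51%). The median standard error of a log2 fold change was 0.65 under 1 CPM and 0.11 from 100 CPM upwards, so smaller differences were callable at high levels. Log2 fold changes of called identifiers reached 5.91 and -3.57, and 24 higher and 9 lower ones differed by more than 4-fold. No identifier was detected in all 8 gel libraries and in none of the 9 flat ones, and none showed the opposite pattern.

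**Figure D1:**
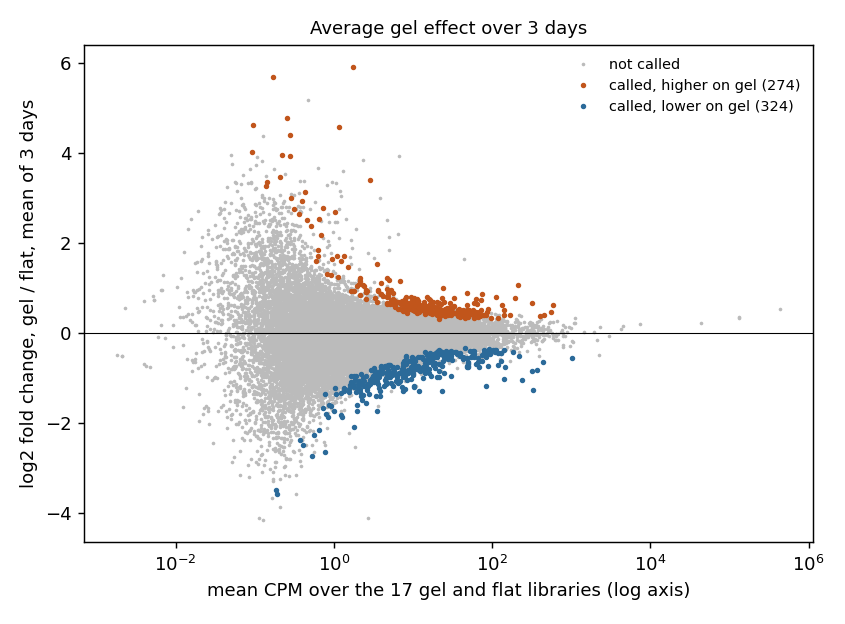
Average gel effect over 3 days for 20949 identifiers. The x axis is the mean CPM over the 17 libraries on a log axis and the y axis is the log2 fold change, gel over flat. Orange points are the 274 identifiers called higher and blue points the 324 called lower, and the cloud narrows from left to right, with called points closer to 0 at high levels.

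The number of calls depended on single libraries and on the design of the fit. Without gel replicate 2 at 3 d, 69 identifiers were called, and all 69 were among the 598 with the same direction. Without flat replicate 3 at 1 d the number was 228, without gel replicate 2 at 1 d 253, without gel replicate 3 at 2 d 260, without gel replicate 2 at 2 d 329, without gel replicate 3 at 1 d 333 and without flat replicate 2 at 2 d 363. Without gel replicate 1 at 2 d it was 829, and without flat replicate 3 at 3 d 530. With the column run as a term in the fit, 207 were called, 117 higher and 90 lower. In edgeR, the run itself was called for 0 of 20949 identifiers, and 1827 had an unadjusted p under 0.05. Only the flat groups of 2 d and 3 d and the U-bottom group of 3 d have libraries in both runs. So few libraries cannot show that the runs are alike. Within the second column run, where the contrast covers only 2 d and 3 d, 110 were called, 77 higher and 33 lower, against 243 for the same days in all libraries. Of the 598 identifiers, 134 (22.4%) were also called with the run as a term and 85 (14.2%) within the second run. All 598 kept their direction in both fits on the column run, with median absolute log2 fold changes of 0.69 with the run as a term and 0.76 within the second run, against 0.70 as reported. The 598 were chosen from these same libraries, so the kept direction and size are a description.

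Most called identifiers differed in the same direction on each day. Of the 274 higher on gel, 265 had a positive log2 fold change on all 3 days, with medians of 0.48 at 1 d, 0.61 at 2 d and 0.74 at 3 d. Of the 324 lower on gel, 319 had a negative one on all 3 days, with medians of -0.68, -0.60 and -0.998. The average chose these identifiers with the same values, so these counts are a description. Within single days, gel libraries lay without overlap above flat ones for 7.7% of all identifiers at 1 d, 8.11% at 2 d and 11.4% at 3 d, and below them for 9.02%, 9.29% and 10.4%. With only 2 gel libraries at 3 d, groups without overlap arise more easily by the order of libraries alone. The shares of 3 d therefore cannot be compared with those of the other days. In 54 of the 274, every gel library lay above every flat library of its day on all 3 days, against 78 of all 20949 (0.372%). In 95 of the 324, every gel library lay below, against 135 of all 20949 (0.644%).

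Among the identifiers higher on gel, SMED30013692 had the highest fold change that met every condition on level, overlap and left-out libraries. On gel it stood at 221, 252 and 236 CPM at 1 d, at 208, 267 and 358 CPM at 2 d, and at 340 and 460 CPM at 3 d. On flat plates it stood at 145, 193 and 116 CPM at 1 d, at 115, 142 and 127 CPM at 2 d, and at 143, 167 and 122 CPM at 3 d. Every gel library lay above every flat library, across days as well as within them. The average log2 fold change was 1.08 (SE 0.13, adjusted p = 7.48e-06, edgeR). In the same table, uncultured cells had 329 ± 47.6 CPM, and U-bottom cultures had 175 ± 29 CPM at 1 d and 136 ± 38.2 CPM at 3 d (SD, n = 3 each).

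SMED30021461 followed, at an average log2 fold change of 0.88 (SE 0.14, adjusted p = 0.000791, edgeR). Its gel libraries had 77.4, 106 and 83.8 CPM at 1 d, 78.9, 135 and 131 CPM at 2 d, and 86.2 and 93.1 CPM at 3 d. Its flat libraries had 43, 53.5 and 49.8 CPM at 1 d, 58.1, 47.2 and 68.3 CPM at 2 d, and 62.4, 62.9 and 32.8 CPM at 3 d. The lowest gel library, at 77.4 CPM, was above the highest flat one, at 68.3 CPM. Gel cultures averaged 89 ± 14.9 CPM at 1 d and 115 ± 31.3 CPM at 2 d (SD, n = 3 each) and 89.6 ± 4.92 CPM at 3 d (SD, n = 2), and uncultured cells 121 ± 7.39 CPM (SD, n = 3).

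SMED30033740 had the lowest fold change that met every condition, with an average log2 fold change of -1.28 (SE 0.15, adjusted p = 5.23e-06, edgeR). Gel libraries had 7.37, 7.65 and 6.05 CPM at 1 d, 5.42, 6.44 and 6.15 CPM at 2 d, and 8.29 and 6.78 CPM at 3 d. Flat libraries had 16.9, 15.9 and 17.1 CPM at 1 d, 16.4, 10.8 and 16.6 CPM at 2 d, and 24.6, 21.6 and 10.7 CPM at 3 d. All 8 gel libraries were below all 9 flat ones. Gel cultures thus lay beside uncultured cells, which had 7.69 ± 1.78 CPM, while U-bottom cultures at 3 d had 27.7 ± 1.12 CPM (SD, n = 3 each). The difference from flat cultures was of nearly the same size on every day, at -1.24, -1.28 and -1.32.

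SMED30033573 was lower by the same amount, at an average log2 fold change of -1.28 (SE 0.19, adjusted p = 0.000346, edgeR), but with more spread between days. Gel libraries had 15.6, 12.3 and 11.1 CPM at 1 d, 17.8, 17.4 and 12.2 CPM at 2 d, and 11.9 and 8.88 CPM at 3 d. Flat libraries had 23.6, 35.7 and 41.8 CPM at 1 d, 48.5, 41.2 and 37.8 CPM at 2 d, and 19.3, 16.1 and 28.4 CPM at 3 d. Gel and flat libraries did not overlap within a day, but the flat library with 16.1 CPM at 3 d lay below the gel libraries of 17.8 and 17.4 CPM at 2 d. Uncultured cells had 6.9 ± 0.431 CPM (SD, n = 3), below all gel libraries.

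These 4 identifiers kept their call under all 31 alternative settings, the fit within the second column run included. For the fits with each of the 17 libraries left out, this was a condition of naming them and adds no support. The other settings reuse the same libraries. Altogether 11 higher and 16 lower identifiers met every condition of the naming rule. The 11 had average log2 fold changes of 0.56 to 1.08 and the 16 of -1.28 to -0.49. Their mean levels ranged over 15.2 to 320 CPM and 10.3 to 435 CPM, so moderately and highly expressed transcripts were both among them.

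**Figure D2:**
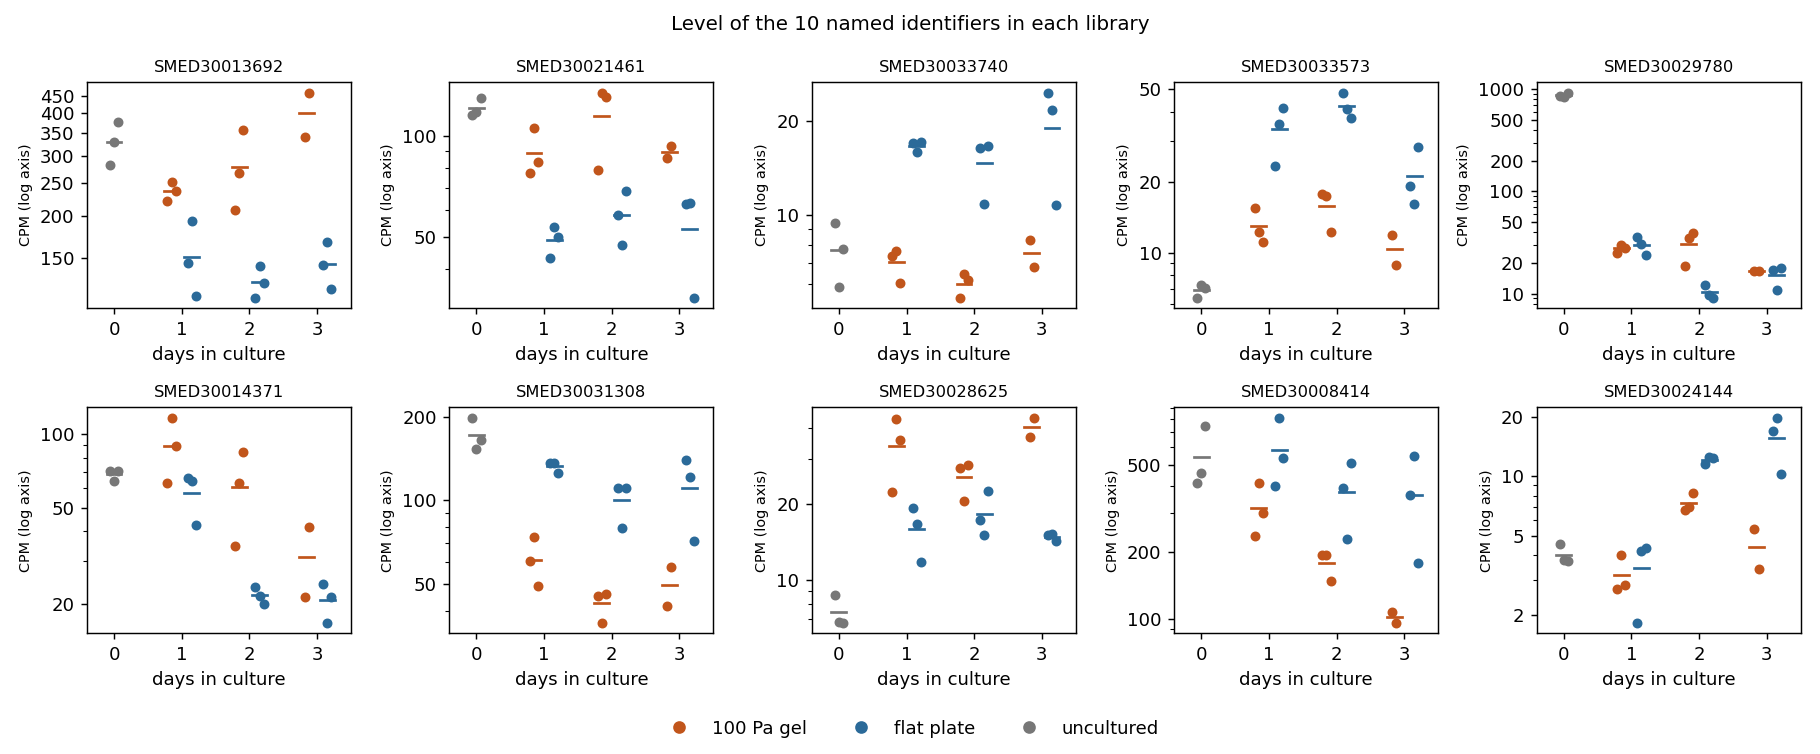
CPM of the 10 named identifiers in each library, on log axes, by days in culture. Orange points are gel, blue points flat and grey points uncultured libraries, and bars are group means. In the first 4 panels, gel and flat libraries do not overlap on any day.

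Tested day by day, few identifiers passed. At 1 d the edgeR test called 0 identifiers (0%) and DESeq2 19. The smallest adjusted p by edgeR was 0.0852, and 1259 of the 20949 identifiers had an unadjusted p under 0.05. At 2 d it called 11 (0.0525%), 8 higher (0.0382%) and 3 lower (0.0143%), against 116 by DESeq2. At 3 d, with only 2 gel libraries, it called 25 (0.119%), 10 higher (0.0477%) and 15 lower (0.0716%), against 260 by DESeq2. Of the 11 identifiers at 2 d, 10 were also called in the average with the same direction, and so were all 25 at 3 d. The average includes the libraries of these days, so this overlap is a description. The counts of calls per day alone do not show that the effect grew, and the change with day has a test of its own.

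The test of that change, of whether the gel effect differed between the 3 days, called 0 identifiers by edgeR (0%) and 3 by DESeq2. The smallest adjusted p by edgeR was 0.839, and 901 of the 20949 identifiers had an unadjusted p under 0.05. Without the low-count filter edgeR called 91. The gel effect at 3 d minus that at 1 d likewise was called for 0 identifiers by edgeR and for 4 by DESeq2. Of the 20949, 891 had an unadjusted edgeR p under 0.05 for the gel effect at 3 d minus that at 1 d. Neither 901 nor 891 is more than would fall under 0.05 without any effect. With a median standard error of 0.79 for this difference over all identifiers, and of 0.31 from 10 CPM upwards, small changes with day were not detectable. Data were also simulated with a gel effect at 3 d only, in identifiers of at least 10 CPM. A 2-fold effect was recovered in 24% by the test of change with day and in 26% by 3 d minus 1 d. For a 4-fold effect these shares were 92% and 90%. Data were also simulated with a gel effect at 3 d only, in identifiers of at least 10 CPM. A 2-fold effect was recovered in 24% by the test of change with day and in 26% by 3 d minus 1 d. For a 4-fold effect these shares were 92% and 90%.

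Among the day-by-day calls, 3 were made at 2 d and at 3 d, namely SMED30013692 and SMED30033740, described above, and SMED30031308. The last had the smallest adjusted p of the average effect, at an average log2 fold change of -1.17 (SE 0.12, adjusted p = 1.76e-06, edgeR). On gel it had 60.2, 73.9 and 49.1 CPM at 1 d, 45.1, 36.2 and 46.1 CPM at 2 d, and 41.7 and 57.4 CPM at 3 d. On flat plates it had 136, 136 and 125 CPM at 1 d, 111, 79.2 and 111 CPM at 2 d, and 140, 121 and 71.5 CPM at 3 d. Gel libraries lay below flat ones on every day without overlap, and the log2 fold change was -1.11 at 1 d, -1.24 at 2 d and -1.16 at 3 d. Uncultured cells had 172 ± 23.4 CPM and U-bottom cultures at 3 d 200 ± 16.6 CPM (SD, n = 3 each), so gel cultures had less of this transcript than any other group of the table.

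Among the calls at 2 d with a mean of at least 10 CPM over the libraries of that day, SMED30029780 and SMED30014371 had the highest fold changes. SMED30029780 had 18.8, 34.8 and 39.3 CPM on gel against 12.2, 9.69 and 9.15 CPM on flat plates at 2 d (log2 fold change 1.58, SE 0.27, adjusted p = 0.0163, edgeR). At the other days gel and flat libraries overlapped, with 25.1, 30.2 and 27.8 CPM on gel against 36, 30.7 and 23.9 CPM on flat plates at 1 d, and 16.7 and 16.8 CPM on gel against 16.9, 10.9 and 17.8 CPM on flat plates at 3 d. It was the 1 identifier of the 11 that the average did not call (log2 fold change 0.53, adjusted p = 0.0654, edgeR), and its change with day had an adjusted p of 0.839. All cultures were far below uncultured cells, at 873 ± 47.8 CPM (SD, n = 3). SMED30014371 had 34.7, 63.3 and 84.4 CPM on gel against 23.5, 21.7 and 20.1 CPM on flat plates at 2 d (log2 fold change 1.48, SE 0.27, adjusted p = 0.0218, edgeR). Its gel libraries overlapped the flat ones at 1 d, with 63.3, 117 and 89.2 CPM on gel against 66.3, 64 and 42.5 CPM on flat plates, and at 3 d, with 21.5 and 41.4 CPM on gel against 24.2, 16.8 and 21.4 CPM on flat plates.

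Among the calls at 3 d with a mean of at least 10 CPM over the libraries of that day, SMED30008414 and SMED30024144 had the lowest fold changes. SMED30008414 had 107 and 95.9 CPM on gel against 365, 545 and 179 CPM on flat plates at 3 d (log2 fold change -1.84, SE 0.36, adjusted p = 0.0269, edgeR). At 1 d its gel libraries, with 238, 411 and 300 CPM, overlapped the flat ones, with 400, 815 and 537 CPM, and at 2 d it had 194, 195 and 148 CPM on gel against 390, 231 and 510 CPM on flat plates. SMED30024144 had 5.45 and 3.39 CPM on gel against 16.9, 19.8 and 10.3 CPM on flat plates at 3 d (log2 fold change -1.79, SE 0.32, adjusted p = 0.017, edgeR). At 1 d the gel libraries had 2.7, 4.02 and 2.82 CPM and the flat ones 1.82, 4.2 and 4.35 CPM, with overlap. In U-bottom cultures at 3 d it stood at 80.8 ± 8.58 CPM, and in uncultured cells at 4.02 ± 0.467 CPM (SD, n = 3 each). Its change with day had an unadjusted p of 0.00141 and an adjusted p of 1 (edgeR).

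Among the same calls at 3 d, SMED30028625 had the second highest fold change after SMED30013692. It had 36.6 and 43.8 CPM on gel against 15, 15.2 and 14.2 CPM on flat plates (log2 fold change 1.44, SE 0.27, adjusted p = 0.0213, edgeR). At 1 d it had 22.2, 43.3 and 35.6 CPM on gel against 19.3, 16.7 and 11.8 CPM on flat plates. Every gel library was above every flat library on both days. At 2 d the groups overlapped, with 27.7, 20.5 and 28.4 CPM on gel against 17.3, 15 and 22.5 CPM on flat plates. Uncultured cells had 7.43 ± 1.1 CPM (SD, n = 3), below all cultures.

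The calls of single days rest on few libraries. At 1 d the number of calls was 3 without flat replicate 3 of 3 d. At 2 d the number of calls was 0 without any 1 of flat replicate 1, flat replicate 3, gel replicate 2 or gel replicate 3 of that day, 2 without flat replicate 2, and 99 without gel replicate 1. At 2 d it was also 19 without flat replicate 1 or 2 of 3 d and 17 without flat replicate 3 of 3 d. At 3 d it was 0 without gel replicate 2, 15 without gel replicate 1, 3 without flat replicate 1 and 66 without flat replicate 3 of that day. At 3 d it was also 13 without gel replicate 3 of 1 d, and 15 without flat replicate 1 of 1 d, flat replicate 3 of 2 d or gel replicate 2 of 2 d. Within the second column run, 10 were called at 2 d and 0 at 3 d. The fold changes moved less than the calls. Without gel replicate 2 at 3 d, the log2 fold change at 3 d was 1.26 for SMED30013692, 1.33 for SMED30028625, -1.75 for SMED30008414 and -1.50 for SMED30024144.

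Since days share no libraries, identifiers called on 2 of the days can be read on the day left out. The days do share the column runs, with all gel libraries in the second run and all flat ones of 1 d in the first. Gel and run therefore cannot be told apart at 1 d, and a difference between runs could repeat on a day left out. The 25 identifiers called higher over 1 d and 2 d showed a median of 0.67 at 3 d on the log2 scale, and 24 of them (96%) were above 0, against 46% of all identifiers. The 24 called lower over 1 d and 2 d had a median of -0.84 at 3 d, and all 24 were below 0, against 52.7% of all. Without gel replicate 2 at 3 d, the medians at 3 d were 0.64 and -0.81, with 24 of 25 and 22 of 24 in the same direction. For the 67 higher and 72 lower over 1 d and 3 d, the medians at 2 d were 0.24 and -0.48, with 53 and 71 in the same direction. For the 117 higher and 126 lower over 2 d and 3 d, the medians at 1 d were 0.34 and -0.37, with 111 and 120 in the same direction. The least repeated set was thus that of identifiers higher over 1 d and 3 d, of which 79.1% were above 0 at 2 d, against 49% of all identifiers.

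**Figure D3:**
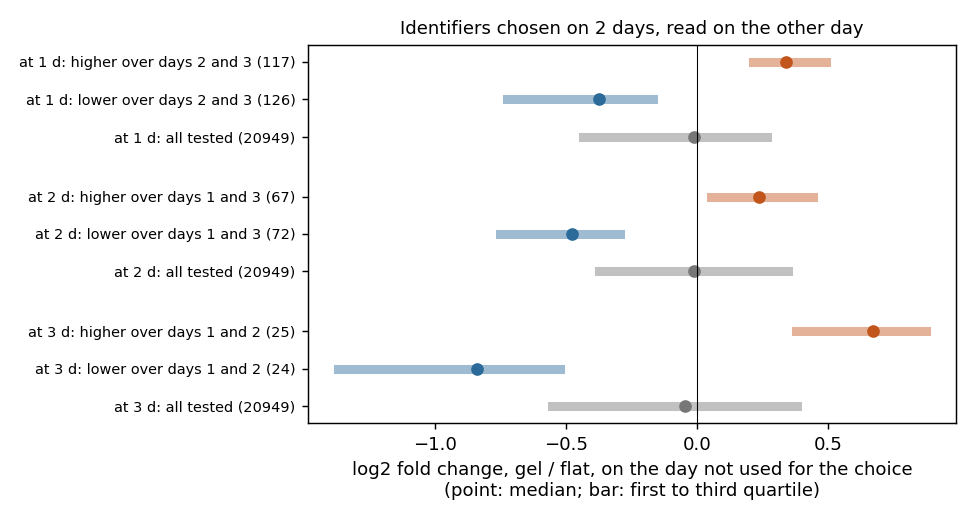
Log2 fold changes, gel over flat, on the day not used for the choice. Points are medians and bars run between the first and the third quartile, in orange for identifiers called higher on the 2 other days, in blue for those called lower and in grey for all 20949. In each block of 3, the orange median lies right of 0, the blue one left of 0, and the grey one next to it.

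Over all identifiers, the gel effects of 2 days were weakly related, and in sparse counts a weak relation is no finding. Across the 20949 identifiers, Pearson's r was 0.155 between 1 d and 2 d, 0.178 between 1 d and 3 d and 0.125 between 2 d and 3 d. Across the 4798 identifiers of at least 10 CPM it was 0.446, 0.57 and 0.417. Identifiers are not independent replicates, and those of 1 library share its depth and composition, so these values describe the libraries.

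Identifiers raised by flat culture in other experiments had mostly negative gel effects, of which few passed on their own. A list of 282 tested identifiers that were higher after 3 d on flat plates than in uncultured cells, in both of 2 other experiments with libraries of their own, had a median log2 fold change of -0.45 on gel, and 10.6% of it was above 0, against 47.9% of all identifiers. Of the 282, 29 (10.3%) were called lower on gel and 2 (0.709%) higher, against 1.55% and 1.31% of all identifiers. The list's median was -0.47 at 1 d, -0.29 at 2 d and -0.59 at 3 d. The reverse list, 112 identifiers lowered in flat culture in both experiments, had a median of 0.13 on gel, with 9 (8.04%) called higher and 4 (3.57%) lower. Of its 73 members from 10 CPM upwards, 7 (9.59%) were called higher and 3 (4.11%) lower, against 3.48% and 3.33% of all at that level. The medians of all 112 were 0.08, 0.23 and 0.13 on the 3 days.

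The same can be read per library. The mean level of the 282 raised identifiers was 2.61, 2.20 and 2.30 log2 CPM in gel libraries at 1 d, 2.77, 2.53 and 2.51 at 2 d, and 2.41 and 1.99 at 3 d. In flat libraries it was 2.69, 2.60 and 3.09 log2 CPM at 1 d, 2.90, 2.93 and 2.76 at 2 d, and 2.53, 2.49 and 2.99 at 3 d. Gel replicate 1 came within the flat libraries at 1 d and 2 d, and the other gel libraries lay below the flat libraries of their day. Uncultured cells had 2.00, 2.01 and 1.86 log2 CPM, so the gel library with 1.99 at 3 d, replicate 2, was at their level. U-bottom libraries had 2.02, 2.13 and 2.80 log2 CPM at 1 d and 2.42, 3.20 and 2.5 at 3 d.

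A culture-response score, the mean log2 CPM of the raised list minus that of the lowered list, was on average lower in gel than in flat cultures on each day, and both were far above uncultured cells. It was -1.61, -2.29 and -2.04 on gel against -1.65, -1.82 and -1.07 on flat plates at 1 d. At 2 d it was -0.92, -1.44 and -1.43 on gel against -0.82, -0.72 and -0.84 on flat plates, and at 3 d -1.08 and -1.57 on gel against -0.91, -0.97 and -0.31 on flat plates. Gel and flat libraries overlapped at 1 d and did not at 2 d and 3 d. Uncultured libraries scored -4.16, -4.27 and -4.44. U-bottom libraries scored -2.58, -2.38 and -1.53 at 1 d, with a mean of -2.16 against -1.98 on gel. A score below that of flat plates at 1 d was thus not particular to gel. At 3 d the U-bottom libraries scored -1.38, -0.048 and -0.92, with a mean of -0.78 against -1.32 on gel and -0.73 on flat plates. The gel minus flat difference was -0.47, -0.47 and -0.59 on the 3 days, -0.51 on average, and between -0.59 and -0.43 when any 1 library was left out. Both lists carry the culture response of other experiments, and no test was made on them because identifiers are not replicates.

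**Figure D4:**
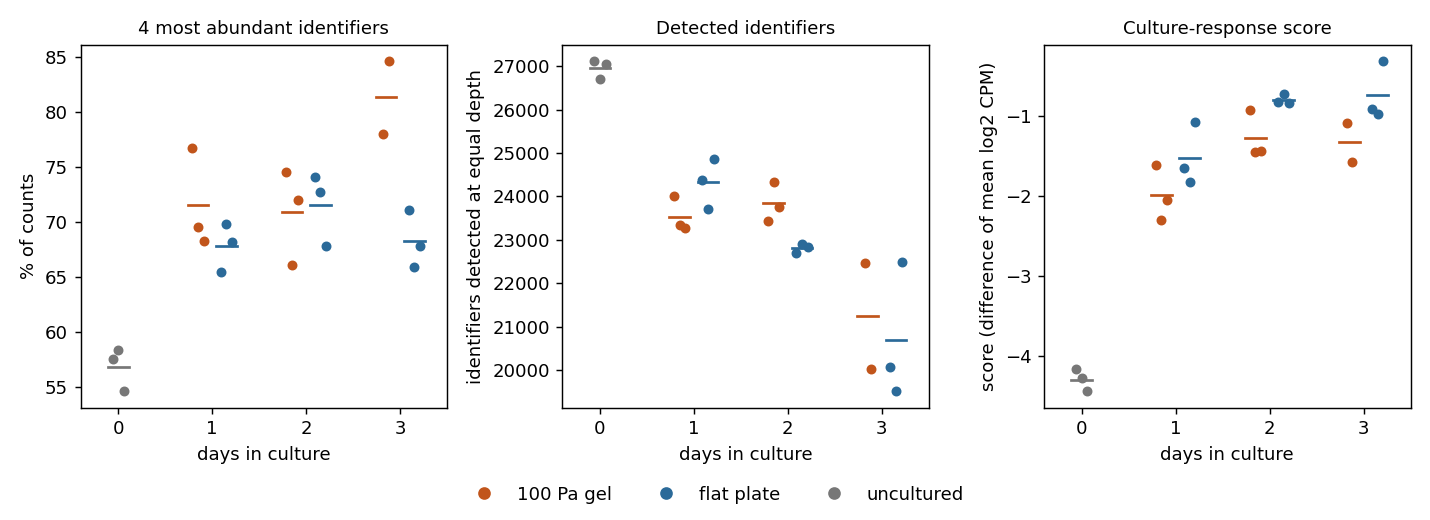
Per library, by days in culture, the percent of counts held by the 4 most abundant identifiers, the number of identifiers detected at equal depth, and the culture-response score (difference of mean log2 CPM). Orange points are gel, blue points flat and grey points uncultured libraries, and bars are group means. In the right panel the gel libraries at 2 d and 3 d lie below the flat ones and all cultures lie far above the uncultured cells at -4.44 to -4.16.

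Another list holds the identifiers that were higher in AggreWell plates, which gather cells in small wells, than on flat plates at 1 d in an experiment of its own. Of the 1713 tested, 77 (4.5%) were called lower on gel and 0 higher, against 1.55% and 1.31% of all identifiers. The median log2 fold change was -0.46, and 15.6% of the list was above 0. This list is mostly of rare transcripts, and low levels alone went with slightly lower values on gel, with a median of -0.11 over all 8291 identifiers under 1 CPM. Its 126 members from 10 CPM upwards had a median of -0.48, and all 126 were below 0, while over all 4798 identifiers of that level the median was 0.04. The 1672 identifiers lower in AggreWell plates had a median of -0.01 on gel, with 30 (1.79%) called higher and 50 (2.99%) lower, against 1.31% and 1.55% of all. Most of this list is at high levels, where calls were more frequent. Of its 1341 members from 10 CPM upwards, 23 (1.72%) were called higher on gel and 50 (3.73%) lower. Among all identifiers of that level these shares were 3.48% and 3.33%. The AggreWell list and the culture list overlap, since 207 identifiers belong to both, 73.4% of the raised culture list and 12.1% of the AggreWell list.

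The identifiers that responded to a cell extract in U-bottom plates, in a further experiment, had gel medians of the opposite sign. Of 1200 higher with extract, 71 (5.92%) were called lower on gel and 13 (1.08%) higher, against 1.55% and 1.31% of all identifiers, with a median log2 fold change of -0.30. Of 1653 lower with extract, 72 (4.36%) were called higher on gel and 13 (0.786%) lower, against 1.31% and 1.55% of all, with a median of 0.14. From 10 CPM upwards the medians were -0.17 and 0.12. At that level, where calls were more frequent, 3.48% of all identifiers were called higher and 3.33% lower on gel. Of 351 members higher with extract, 10 (2.85%) were called higher and 33 (9.4%) lower. Of 1060 members lower with extract, 56 (5.28%) were called higher and 8 (0.755%) lower. The list higher with extract also shares members with the others, 208 of the 282 raised in flat culture (73.8%) among them. The list of feeder responses was empty, because edgeR called 0 identifiers for feeder cells against flat plates (2286 had an unadjusted p under 0.05).

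**Figure D5:**
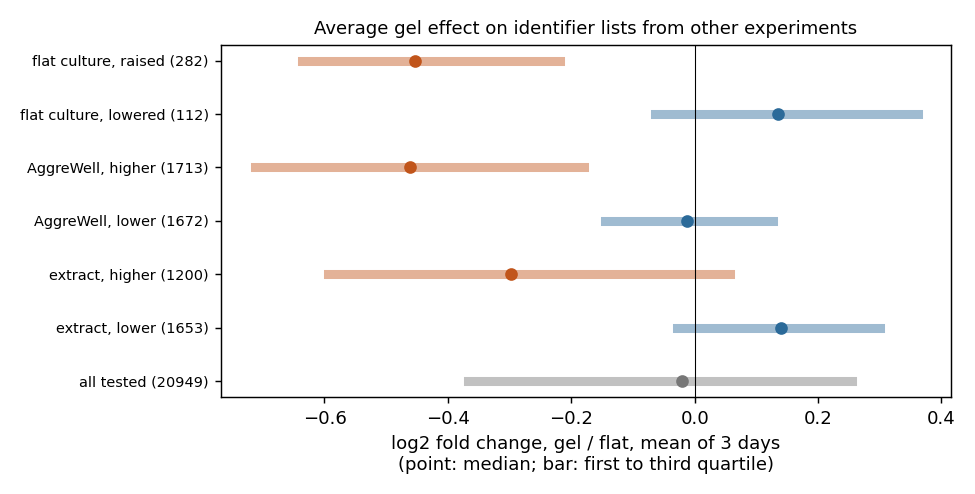
Average gel effect, log2 fold change gel over flat, for 6 lists of identifiers called in other experiments and for all identifiers. Points are medians and bars run between the first and the third quartile, with the number of identifiers in brackets, in orange for lists raised or higher and in blue for lists lowered or lower in the other experiment. The 3 orange medians lie at -0.46 to -0.30, left of the grey median of all identifiers at -0.02.

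Looked up in those experiments, the gel calls gave these overlaps as shares of their own number. Of the 324 lower on gel, 312 were tested in the extract experiment, and 71 of them (22.8%) were higher with extract, against 6.2% of all identifiers in both tables. Of the 273 higher on gel in that table, 72 (26.4%) were lower with extract, against 8.54%. In flat culture of the same experiment, 50 of the 312 (16%) were raised, against 2.66% of all, and 26 of the 273 (9.52%) were lowered, against 1.82%. In flat culture of the feeder experiment, 58 of 307 identifiers lower on gel (18.9%) were raised, against 7.37%, and 15 of 271 higher on gel (5.54%) were lowered, against 2.73%. In AggreWell plates, 77 of 314 identifiers lower on gel (24.5%) were higher and 50 (15.9%) were lower, against 10.7% and 10.4% of all. Of 256 identifiers higher on gel, 0 were higher in AggreWell plates and 30 (11.7%) lower. The shares above are not matched for level of expression. From 10 CPM upwards, 1341 of all 4797 identifiers in both tables were lower in AggreWell plates. This held for 23 of 167 identifiers higher on gel and 50 of 160 lower on gel. At that level the median log2 fold change with extract was -0.45 for identifiers higher on gel and 0.21 for those lower, against -0.16 for all.

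Within the second run, at 2 d and 3 d, the medians were -0.41 for the list raised in flat culture, -0.43 for that higher in AggreWell plates, -0.26 for that higher with extract and 0.18 for that lower with extract, with 0.02 over all identifiers. For the same days in all libraries they were -0.42, -0.45, -0.30 and 0.14, with -0.03 over all identifiers. The spread between libraries of a group bears on these sizes. The SD of the list median between libraries of a group was 0.287 for the list raised in flat culture, 0.103 for that lowered, 0.226 for that higher in AggreWell plates, 0.239 for that higher with extract and 0.154 for that lower with extract, on the log2 CPM scale. For the list lower with extract this is more than its median gel effect of 0.14. The culture-response score had an SD of 0.319 between libraries of a group.

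Measures of each library as a whole did not pass between gel and flat cultures after adjustment. The 4 most abundant identifiers took 76.7%, 69.5% and 68.3% of the counts on gel at 1 d, 74.5%, 66.1% and 72% at 2 d, and 78% and 84.6% at 3 d. On flat plates they took 65.4%, 69.8% and 68.2% at 1 d, 74.1%, 72.7% and 67.8% at 2 d, and 71.1%, 65.9% and 67.8% at 3 d. Groups overlapped at 1 d and 2 d, and both gel libraries were above all flat ones at 3 d. Averaged over days the share was 5.36 percentage points higher on gel, with p = 0.0418 in an exact permutation test within days (two-sided, smallest possible p 0.00025) and 0.25 after adjustment over 6 such tests. Its part in the other results was not tested. With these 4 identifiers left out before scaling, 591 identifiers were called in place of 598, a count that does not test that part.

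The most abundant of the 4 at 3 d was SMED30027385, singled out after its values were seen. It took 50.7% and 59.9% of the counts on gel against 32%, 26.3% and 37.2% on flat plates at 3 d. At 2 d the order was the opposite for the means, with 50.3%, 22.6% and 30.6% on gel against 49.7%, 48.1% and 35.4% on flat plates. Over the 3 days it did not pass (adjusted p = 0.742, exact permutation test).

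The number of identifiers detected at an equal depth of 12386092 counts did not pass either. It was 24006, 23336 and 23264 on gel at 1 d, 23435, 24334 and 23764 at 2 d, and 22466 and 20028 at 3 d. On flat plates it was 24381, 23715 and 24873 at 1 d, 22699, 22897 and 22837 at 2 d, and 20061, 19508 and 22486 at 3 d. The groups overlapped at 1 d and 3 d, and all 3 gel libraries were above the flat ones at 2 d. The mean difference was 269 identifiers more on gel (p = 0.588, adjusted p = 0.742, exact permutation test), and without gel replicate 1 at 3 d it was -137.3. Counted at 1 CPM or more in place of any count, the mean difference was -380.9 (p = 0.0182 before adjustment, exact permutation test), so the direction depends on where detection is set.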

How the data were processed

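Per the labels' protocols, cDNA was made with a template-switching oligo, amplified and tagmented with Tn5, and no molecular identifiers are mentioned. The authors deposited estimated counts per identifier, not scaled to depth, for the gel experiment: 99.7% of non-zero values were more than 0.001 from a whole number. The tables of the feeder and extract experiments hold whole counts, as deposited. The submitters' processing notes name kallisto 0.46.2 and R 4.0.5 without saying what each did. Transcriptome, annotation and build: not given in the sources used here.

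Estimated counts were rounded. With edgeR 4.0.16 in R 4.3.3, low identifiers were removed with filterByExpr, libraries scaled by TMM, and all 26 libraries of the table fitted with 1 mean per group (9 groups). Two-sided quasi-likelihood F tests gave the mean of the 3 daily gel minus flat differences, each day's difference and its change with day, adjusted over 20949 identifiers at a threshold of 0.05. SE was computed as log2 fold change over the root of F, without sign. DESeq2 1.42.0 was an alternative. Per comparison, the text names the 2 identifiers with the highest and the 2 with the lowest log2 fold change among calls of at least 10 CPM, without overlap of gel and flat libraries within each day compared, whose call held with each library left out. For single days none met the last condition, which was dropped. The lists come from the same edgeR test in the tables of the AggreWell, feeder and extract experiments. Log2 CPM used a prior count of 2. Detection was rarefied analytically to the lowest total.

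Replicate numbers were not used to pair gel with flat libraries. Same-numbered libraries deviated from their group means with correlations of -0.391 to 0.321. At 2 d these correlations were 0.0897, 0.0544 and 0.154, and those of differently numbered libraries lay between -0.132 and -0.00677. At 1 d and 3 d both kinds of pair had values of either sign. So few libraries cannot decide whether the numbers stand for pairs. The members and lists were chosen with earlier results of these data known. The fits were tested on simulated data.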

Additional observations from a re-analysis of the deposited data

How the results depend on the processing

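For the average effect, 598 calls as reported, the number was 1228 without the low-count filter (622 higher, 606 lower), 1266 by DESeq2 (575 of the 598 among them), 207 with the column run as a factor, 110 in the second column run only, 49 over 1 d and 2 d, 139 over 1 d and 3 d and 243 over 2 d and 3 d, and 69 to 829 with 1 library left out. In the last fits, and over fewer days, fewer samples enter. For the rest, the cause was not tested. At 1 d, with 0 calls as reported, there were 102 without the filter, 2 from 10 CPM upwards, 19 by DESeq2 and 0 to 3 with 1 library left out. At 2 d, with 11, there were 198 without the filter, 74 from 10 CPM upwards, 18 with only the 17 libraries fitted, 47 with the column run as a factor, 116 by DESeq2 and 0 to 99 with 1 library left out. At 3 d, with 25, there were 264 without the filter, 177 from 10 CPM upwards, 4 with only the 17 libraries, 14 with the column run as a factor, 0 in the second run, 260 by DESeq2 and 0 to 66 with 1 library left out. For the change with day, with 0, there were 91 without the filter and 3 by DESeq2, and for 3 d minus 1 d, with 0, 37 and 4, and 0 with any library left out in both.

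Fitting the replicate number as a block gave 428 calls for the average, 0 at 1 d, 8 at 2 d and 22 at 3 d. A replicate block by column number, which differs from the titles at 3 d, gave 418, 3, 11 and 40. A replicate block within day on the 17 libraries gave 1038, 25, 91 and 203, with 9 for the change with day and 4 for 3 d minus 1 d. Whether the numbers pair the samples could not be decided, as stated above.

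Of 348 alternatives for the named identifiers, 312 kept the call and direction, 36 lost the call and 0 reversed. For the 4 named by the average, a call that held with each library left out was a condition of naming. Those fits therefore kept the call by rule. All 132 alternatives for the list medians stayed within the spread between libraries. The share of the 4 most abundant identifiers was 4.255 to 6.472 points higher on gel with 1 library left out, and its unadjusted p lay above 0.05 in 11 of 17 such fits. The detected number gave 269 as reported, -380.9 at 1 CPM or more, and -137.3 to 675.2 with 1 library left out. The culture-response score gave -0.592 to -0.429. At 3 d, 2 gel libraries limit what single-day tests can show.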

Other observations

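Some identifiers named for the gel effect also stood out in experiments that share no library with it. SMED30029780, higher on gel at 2 d, was lower after 3 d of flat culture than in uncultured cells in the extract experiment (log2 fold change -4.91, SE 0.33, adjusted p = 4.88e-12, edgeR) and in the feeder experiment (-4.62, SE 1.21, adjusted p = 0.0136). SMED30024144, lower on gel at 3 d, was higher in flat culture than in uncultured cells in the extract experiment (3.42, SE 0.53, adjusted p = 6.31e-05, edgeR), and did not pass in the feeder experiment (2.95, SE 1.25, adjusted p = 0.104). In the extract experiment it was also lower with extract than without (-2.80, SE 0.30, adjusted p = 3.43e-08). SMED30014371 and SMED30013692, higher on gel, were lower in flat culture than in uncultured cells in the extract experiment, with log2 fold changes of -1.47 (SE 0.37, adjusted p = 0.014) and -0.68 (SE 0.20, adjusted p = 0.0479, edgeR). In the feeder experiment neither passed, with -1.13 (SE 0.76, adjusted p = 0.346) and -0.29 (SE 0.59, adjusted p = 0.801). These values were looked up after the gel results were known.

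SMED30033740 and SMED30033573, the named identifiers lowest on gel on average, passed in none of these comparisons. Their log2 fold changes with extract were 0.51 (SE 0.26, adjusted p = 0.19) and 0.74 (SE 0.30, adjusted p = 0.103), and in AggreWell plates 0.55 (SE 0.43, adjusted p = 0.359) and 0.35 (SE 0.35, adjusted p = 0.477), by edgeR. In flat culture against uncultured cells they had 0.997 and 0.591 in the extract experiment and -0.815 and -0.265 in the feeder experiment. SMED30008414 and SMED30031308, also lower on gel, passed in none of these comparisons either. In flat culture they had -0.448 and -0.172 in the extract experiment and -0.924 and -1.15 in the feeder experiment.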
